A study of Mus musculus with 10 samples.

Results

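Claudins and other genes of epithelial cell junctions were compared between mammary tumors grown from control 4T1 cells and from 4T1 cells edited at Wwtr1, the gene of TAZ. The 9 genes, taken as a list of names with earlier results of these data known, were Cldn1, Cldn3, Cldn4, Cldn7, Epcam, Ocln, Tjp1, F11r and Dsp. All 9 were found by their Ensembl identifiers among the 17864 genes of the count table, and all 9 passed the filter on low counts, which kept 14816 genes. 4T1 is a mammary carcinoma line from a BALB/c mouse that serves as a model of triple-negative breast cancer. Cells of both groups carried Cas9, with a control guide RNA in the 5 sgCon tumors and a guide RNA against Taz in the 5 sgTaz tumors. The methods place the cells in the 4th mammary fat pad of female SCID or BALB/c mice aged 6 to 8 weeks. They do not say which strain carried the sequenced tumors. RNA of the whole tumor was sequenced, so host cells were measured together with the carcinoma cells, and fewer cells of a type cannot be told apart from less RNA per cell. Each label gives 1 tumor per library, and p-values measure the spread between these tumors.

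Epithelial cells are held together by several kinds of junction. Claudins form the strands of the tight junction, which closes the space between neighbouring cells, and occludin (Ocln) lies in the same strands. ZO-1 (Tjp1) anchors these strands to actin inside the cell, and JAM-A (F11r) is an immunoglobulin-like adhesion protein at the same site. EpCAM (Epcam) is a surface glycoprotein of epithelial cells that binds claudin-7 in the membrane. Desmoplakin (Dsp) ties desmosomes to keratin filaments. Loss of such genes is a textbook mark of epithelial-mesenchymal transition, a change of state to which TAZ has been linked.

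Total counts ranged from 14753922 to 19595821 with sgCon and from 12185383 to 18395558 with sgTaz, and 3 counts corresponded to 0.150 to 0.243 CPM. CPM is the usual scaling of a count to the total of its tumor, here after TMM normalization. Wwtr1 was at 192, 181, 115, 171 and 156 CPM in sgCon tumors 1 to 5. It was at 86.6, 104, 109.9, 139 and 102 CPM in sgTaz tumors 1 to 5, so that 4 of 5 sgTaz tumors were below the lowest sgCon tumor. The difference of -0.59 on the log2 scale (standard error, SE, 0.15) had an adjusted p of 0.096 by edgeR's quasi-likelihood test, 0.013 by DESeq2 and 0.028 by limma-voom. The labels call the cells tumor cells, but markers of host cells were present in every tumor, among them 7 macrophage genes with a summed level of 746 to 1765 CPM in sgCon tumors and 1458 to 2054 CPM in sgTaz tumors. The simple epithelial keratins Krt7, Krt8, Krt18 and Krt19 summed to 1732 to 3628 CPM in sgCon tumors and 1335 to 2495 CPM in sgTaz tumors.

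The 9 genes differed widely in their level. Per kilobase of exon, Epcam was the highest, at 135.8 ± 81.1 RPKM (SD, n = 10 tumors), followed by Cldn4 at 110.2 ± 68.3 RPKM. Cldn3 at 38.3 ± 21.5 RPKM and F11r at 38.1 ± 4.73 RPKM could not be ordered by their spread, and neither could Tjp1 at 29.1 ± 10.9 RPKM and Cldn7 at 20.6 ± 12.6 RPKM. Dsp at 6.61 ± 2.98 RPKM, Ocln at 2.17 ± 0.864 RPKM and Cldn1 at 0.385 ± 0.152 RPKM closed the order. Of the 8 pairs of neighbours in this order, 6 differed within tumors by an exact sign-flip test over the 10 tumors (adjusted p between 0.00391 and 0.0365 over the 8 pairs). Cldn3 against F11r gave an adjusted p of 0.422 and Tjp1 against Cldn7 gave 0.132 by the same exact test. This order is over both groups together, and in its middle it differed by group. Tjp1 averaged 23.4 RPKM with sgCon and 34.8 RPKM with sgTaz, against 39.5 and 36.7 RPKM for F11r and 27.0 and 14.2 RPKM for Cldn7. Cldn1 rested on 12 to 59 counts per tumor, while the other 8 genes had between 72 and 9656 counts. Cldn3 shares 40 of its 1259 exon bases with an antisense gene (Wbscr25), and Dsp shares 499 of 9659 exon bases with Gm10129 on the opposite strand. Whether reads were counted by strand is not stated in the methods, so reads of these overlaps cannot be assigned.

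**Figure D1:**
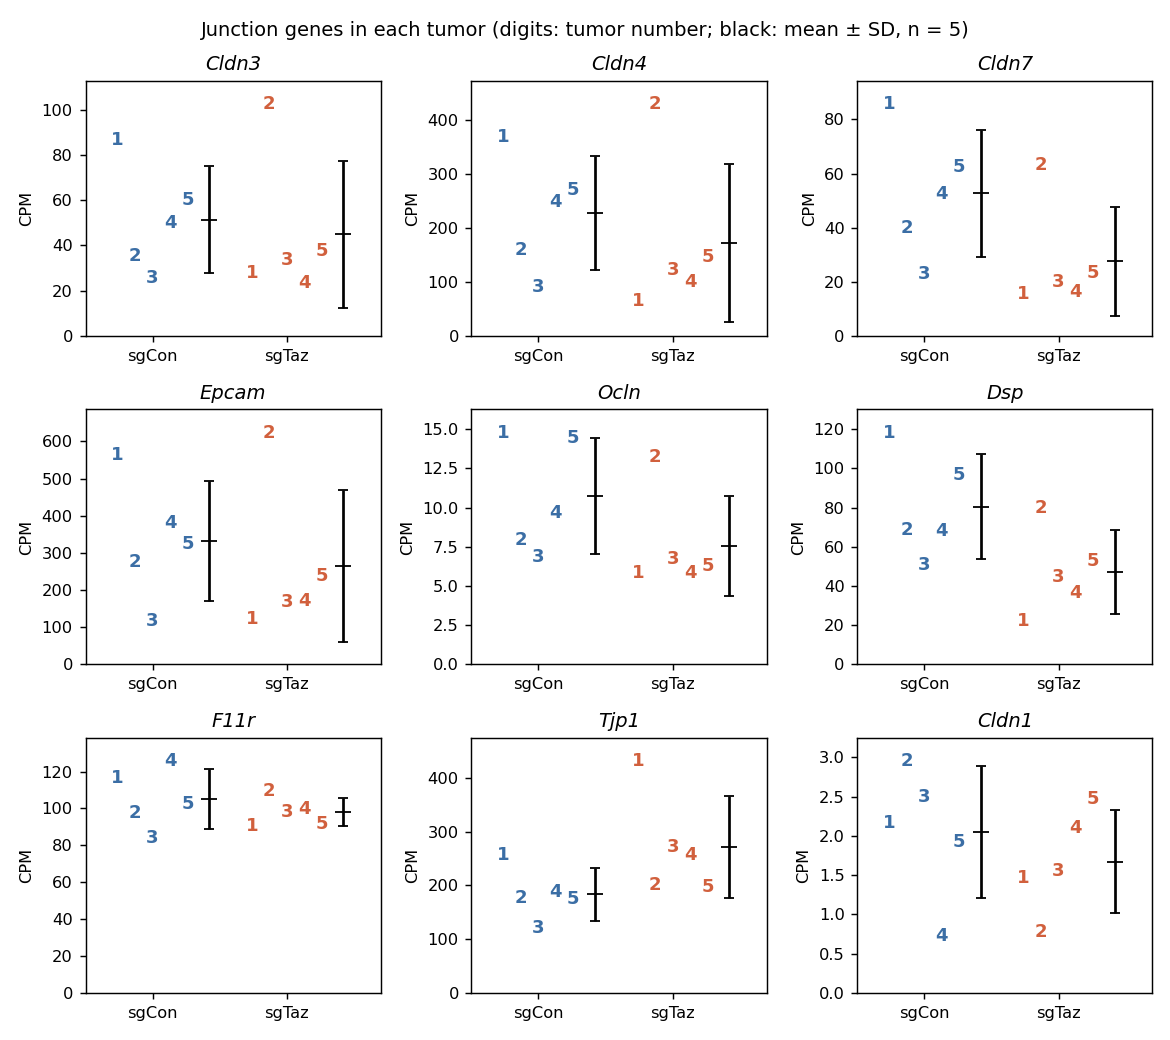
CPM of each junction gene in each tumor (linear axis from 0), with the digit giving the tumor number, sgCon in blue and sgTaz in orange, and black bars the mean ± SD of 5 tumors. sgTaz tumor 2 lies far above the other sgTaz tumors in Cldn3, Cldn4, Cldn7, Epcam and Ocln, and the groups overlap in every gene.

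Cldn4 and Cldn3 encode claudins of simple epithelia and lie close together on chromosome 5 of mm10, Cldn4 from 134945119 to 134946934 on the minus strand and Cldn3 from 134986214 to 134987472 on the plus strand. Cldn4 was at 368, 159.7, 91.6, 248 and 271 CPM in sgCon tumors 1 to 5 and at 65.7, 429, 122, 99.1 and 147 CPM in sgTaz tumors 1 to 5. The highest and the lowest of all 10 values were both from sgTaz tumors. The difference came to -0.40 on the log2 scale (SE 0.49, 95% interval -1.48 to 0.68), with an adjusted p of 0.670 by edgeR. Cldn3 was at 86.4, 35.4, 25.4, 49.8 and 60.1 CPM in sgCon tumors and at 27.7, 102, 33.5, 23.5 and 37.5 CPM in sgTaz tumors. Here, too, sgTaz tumor 2 was the highest of the 10, and the ranges of the groups nearly coincided. For Cldn3 edgeR estimated a log2 fold change of -0.19 (SE 0.43, 95% interval -1.13 to 0.74, adjusted p = 0.821).

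Cldn7 (chromosome 11 of mm10, 69964779 to 69967885, plus strand) encodes the claudin that forms a complex with EpCAM. It was at 85.6, 40.0, 23.0, 52.3 and 62.5 CPM in sgCon tumors 1 to 5. In sgTaz tumors 1 to 5 it was at 15.5, 63.2, 19.9, 16.3 and 23.1 CPM. Thus 3 sgTaz tumors were below every sgCon tumor, 1 was level with the lowest sgCon tumor, and tumor 2 was above 4 of the 5. The means were 52.7 ± 23.6 CPM (SD, n = 5) and 27.6 ± 20.1 CPM (SD, n = 5), and for the log2 fold change of -0.93 (SE 0.43, 95% interval -1.88 to 0.015) edgeR gave an adjusted p of 0.236. This was the largest difference among the 9 genes. limma-voom, with tumor weights estimated from these same counts and not from a measured quality, called it at -1.28 with an adjusted p of 0.0295. DESeq2 did not, at -0.92 with 0.249. The limma-voom value lay between those of edgeR with all tumors (-0.93) and without sgTaz tumor 2 (-1.49).

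Cldn1, a claudin of skin and other stratified epithelia, was near the lower end of what was measured. It was at 2.16, 2.95, 2.50, 0.722 and 1.92 CPM in sgCon tumors and at 1.46, 0.775, 1.55, 2.10 and 2.47 CPM in sgTaz tumors. A log2 fold change of -0.30 (SE 0.38) was smaller than its error, with an adjusted p of 0.679 by edgeR.

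Epcam was at 563, 275, 117, 381 and 323 CPM in sgCon tumors 1 to 5 and at 121, 624, 168, 172 and 237 CPM in sgTaz tumors 1 to 5. The 4 sgTaz tumors other than tumor 2 were below 4 of the 5 sgCon tumors, and none was below sgCon tumor 3. On the log2 scale the difference was -0.33 (SE 0.47, 95% interval -1.36 to 0.71, adjusted p = 0.713 by edgeR). Ocln was at 14.8, 7.91, 6.86, 9.66 and 14.4 CPM in sgCon tumors and at 5.86, 13.2, 6.70, 5.83 and 6.26 CPM in sgTaz tumors. All sgTaz tumors except tumor 2 were below the lowest sgCon tumor, and edgeR gave a log2 fold change of -0.50 (SE 0.29, adjusted p = 0.341).

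Dsp was at 118, 68.7, 51.0, 68.2 and 96.6 CPM in sgCon tumors 1 to 5 and at 22.3, 80.0, 44.4, 36.5 and 52.6 CPM in sgTaz tumors 1 to 5. The means were 80.6 ± 26.7 CPM (SD, n = 5) and 47.2 ± 21.5 CPM (SD, n = 5). Again 3 of 5 sgTaz tumors were below every sgCon tumor. The log2 fold change of -0.77 (SE 0.31, 95% interval -1.46 to -0.086) passed an unadjusted threshold of 0.05 in edgeR, and no longer did so in 5 of 10 fits that left out 1 tumor (without sgCon tumor 1 or 5, or sgTaz tumor 1, 3 or 4). It did not pass the adjusted one, with an adjusted p of 0.190 by edgeR and 0.0993 by DESeq2. limma-voom gave -0.91 with an adjusted p of 0.0375.

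Tjp1 had the opposite sign. It was at 256, 177, 120.5, 187 and 175 CPM in sgCon tumors 1 to 5 and at 431, 201, 272, 257 and 196 CPM in sgTaz tumors 1 to 5, with 3 sgTaz tumors above the highest sgCon tumor. With a log2 fold change of 0.57 (SE 0.23, 95% interval 0.054 to 1.08), it had an adjusted p of 0.195 by edgeR. Without sgTaz tumor 1, the highest, the value was 0.34 with an adjusted p of 0.352. With the level of lymph node stroma genes as a covariate it was 0.097 with an adjusted p of 0.912, and either way it was no longer past the unadjusted threshold. Leaving out 1 tumor at a time, it was not past in 6 of 10 fits (sgCon tumor 2, 3, 4 or 5, or sgTaz tumor 1 or 3). F11r was the steadiest of the 9, at 83.9 to 126 CPM in sgCon tumors and 90.3 to 109 CPM in sgTaz tumors. The difference was -0.10 on the log2 scale (SE 0.11, 95% interval -0.34 to 0.13, adjusted p = 0.602 by edgeR).

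No junction gene passed an adjusted p of 0.05 in edgeR, in which 0.00675% of all genes tested did (1 gene of 14816). At an unadjusted p below 0.05, 1 of the 9 genes was lower in sgTaz tumors (Dsp, against 11.9% of all genes) and 1 was higher (Tjp1, against 9.86%), so both shares were near the background. The groups overlapped for every junction gene, while 2.13% of all genes were lower and 2.44% higher in sgTaz tumors without overlap. The log2 fold change was below 0 for 8 of the 9 genes, against 53% of all genes, with a median of -0.33 against -0.02. The list was chosen with earlier results of these data known. Cldn3, Cldn4, Cldn7, Epcam, Ocln and Dsp also varied together among tumors, so the 9 signs are not independent. DESeq2 called none of the 9 at an adjusted p below 0.05 (7.22% of all genes), and limma-voom called 2 as lower, Cldn7 and Dsp (5.8% of all genes). At an unadjusted p below 0.05, limma-voom had 5 of the 9 lower (16.8% of all genes).

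These counts depended on single tumors. Without sgCon tumor 1, the highest sgCon tumor in 7 of the 9 genes, 0 genes were lower at an unadjusted p below 0.05, against 12.4% of all genes. The log2 fold changes were then -0.68 for Cldn7, -0.59 for Dsp, -0.36 for Ocln, -0.16 for Cldn4, -0.05 for Epcam and 0.08 for Cldn3. sgTaz tumor 2 had the opposite effect. It was the highest of all 10 tumors in Cldn3, Cldn4 and Epcam. Its Wwtr1 RNA was at 104 CPM, within the range of the other sgTaz tumors, and the extent of editing in single tumors was not tested. Without sgTaz tumor 2, 6 of the 9 genes were lower at an unadjusted p below 0.05, against 13.4% of all genes tested: Cldn3, Cldn4, Cldn7, Epcam, Ocln and Dsp. The log2 fold changes were then -1.49 for Cldn7, -1.07 for Cldn4, -1.05 for Dsp, -0.93 for Epcam, -0.80 for Ocln and -0.75 for Cldn3. None of the 6 passed the adjusted threshold (edgeR adjusted p between 0.0578 and 0.175), where 0.499% of all genes did. The labels give no ground to set either tumor aside.

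The same 6 genes varied together among tumors of the same group. After the group means were taken off, the 15 pairs among Cldn3, Cldn4, Cldn7, Epcam, Ocln and Dsp had Pearson r between 0.847 and 0.989 over the 10 tumors (median 0.938), with Spearman rho between 0.806 and 1. All 15 had an adjusted p of at most 0.013 over the 36 pairs of the 9 genes by permutation within groups. Without the 2 tumors farthest from the median, r was between 0.644 and 0.966. The closest pair by Pearson r was Cldn3 and Cldn7 (r = 0.989, rho = 0.988), and by rho it was Cldn4 and Cldn7 (rho = 1). Tjp1 stood outside this pattern, with r of 0.0065 to Epcam and 0.028 to Cldn7. F11r was related to Epcam, Cldn4 and Cldn7 (r = 0.792, 0.742 and 0.720, adjusted permutation p = 0.015, 0.0187 and 0.0346). Over the 21 pairs with Cldn1, Tjp1 or F11r, r ran from -0.708 to 0.792 and 3 passed.

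**Figure D2:**
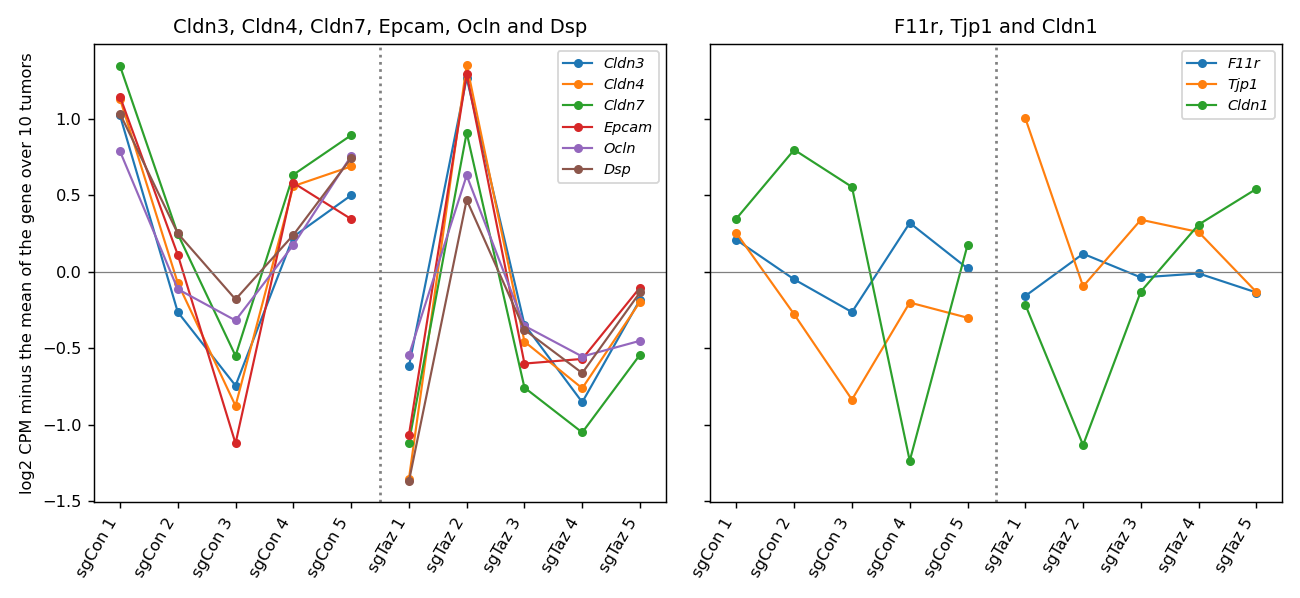
log2 CPM of each gene minus its own mean over the 10 tumors, by tumor, with a dotted line between the 5 sgCon and the 5 sgTaz tumors. The 6 genes on the left peak together in sgCon tumor 1 and sgTaz tumor 2 and are low together in sgCon tumor 3 and sgTaz tumor 1, while on the right F11r varies over a narrower range and Tjp1 and Cldn1 do not follow the 6.

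The keratins varied with these genes. The mean log2 CPM of Krt7, Krt8, Krt18 and Krt19 averaged 8.62 ± 0.45 with sgCon and 8.08 ± 0.40 with sgTaz (SD, n = 5 each), a difference of -0.53 that did not pass an exact permutation test (two-sided p = 0.0794). Without sgTaz tumor 2 it was -0.68 with an exact p of 0.0159. After the group means were taken off, the keratin level was related to Dsp (r = 0.938, rho = 0.927), Cldn4 (r = 0.912, rho = 0.867), Cldn7 (r = 0.905, rho = 0.867), Cldn3 (r = 0.893, rho = 0.818), Epcam (r = 0.886, rho = 0.745) and Ocln (r = 0.885, rho = 0.830). Permutation p-values adjusted over the 9 genes were at most 0.00486 for r and 0.0355 for rho, and r stayed between 0.702 and 0.941 without the 2 farthest tumors. F11r (r = 0.644, adjusted permutation p = 0.0841), Tjp1 (r = 0.026) and Cldn1 (r = -0.237) were not past the threshold.

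With the keratin level as a covariate in edgeR, the group difference of Cldn3 was 0.60, of Epcam 0.52, of Cldn4 0.47, of Ocln 0.052, of Cldn7 -0.13 and of Dsp -0.14 (log2), and none passed the adjusted threshold (adjusted p between 0.176 and 0.906). The signs of Cldn3, Cldn4, Epcam, Ocln and F11r were thus opposite to those without the covariate. That of Tjp1 was 0.56, close to its value without the covariate. The covariate and the group are not independent to the extent of the keratin difference of -0.53, which did not pass its own test. With the level of lymph node stroma genes as the covariate, the differences were larger, at -1.44 for Cldn7, -0.91 for Cldn4 and -0.85 for Ocln. Epcam was at -0.82, Dsp at -0.81, Cldn3 at -0.69 and F11r at -0.29, while Tjp1 was at 0.097 and Cldn1 at 0.44. The SEs were larger as well, at 0.59 for Cldn7 and 0.66 for Cldn4, against 0.43 and 0.49 with group alone. This covariate, too, is not independent of the group, with a median log2 fold change of -2.21 over its 4 tested genes. In that fit 1 of the 9 genes, Cldn7, was lower at an unadjusted p below 0.05, against 5.75% of all genes, and its adjusted p by edgeR was 0.431.

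**Figure D3:**
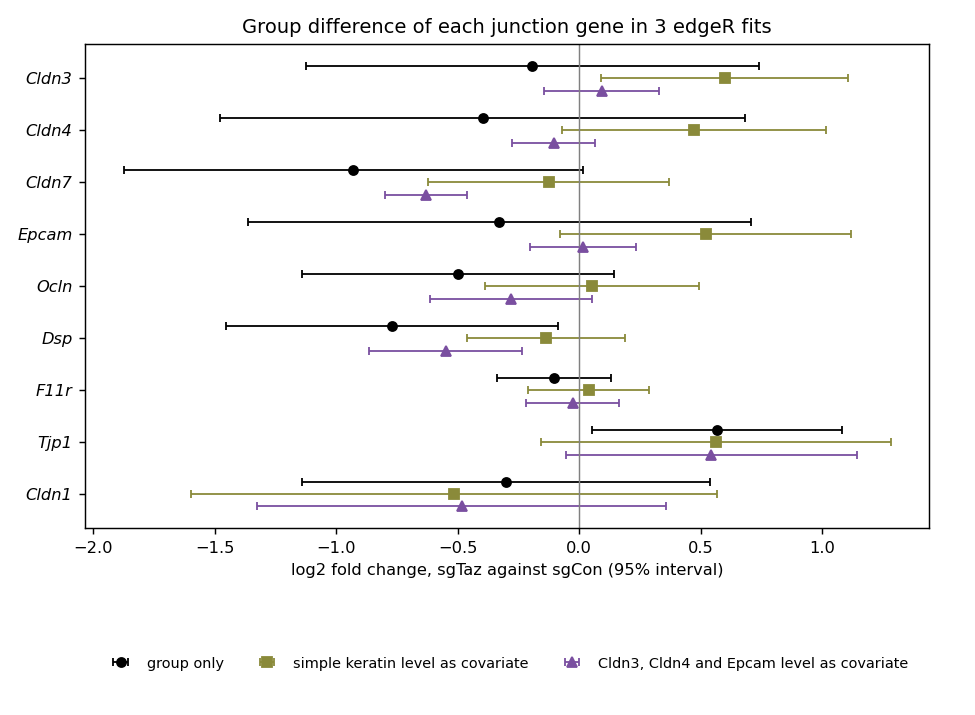
log2 fold change of each junction gene, sgTaz against sgCon, with its 95% interval, in edgeR fits with group alone (black), with the keratin level (olive) and with the mean level of Cldn3, Cldn4 and Epcam (purple) as a covariate. Cldn7 is at -0.93 with group alone and at -0.63, with a much narrower interval, at equal level of Cldn3, Cldn4 and Epcam.

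Markers of other cells also varied among these tumors, and no marker gene described here passed the adjusted threshold in edgeR. As a background for calls by the other tools, DESeq2 called 533 of all 14816 genes tested as higher with sgTaz and 537 as lower. The limma-voom counts were 686 higher and 860 lower. All 7 macrophage genes had a log2 fold change above 0, with 5 past the unadjusted threshold (background 9.86%), and DESeq2 called 3 and limma-voom 4 as higher in sgTaz tumors. All 5 neutrophil genes were below 0, with 3 past the unadjusted threshold (background 11.9%) and 3 called by limma-voom, at summed levels of 166 to 692 CPM in sgCon tumors and 66.6 to 259 CPM in sgTaz tumors. The 5 adipocyte genes tested were above 0 with none past it, at 68.7 to 113 CPM and 43.4 to 206 CPM. Of 7 B cell genes, all 7 were measured and below 0, 5 of them past the unadjusted threshold and 7 called by limma-voom, with summed levels of 62.4 to 839 CPM in sgCon tumors and 0.955 to 195 CPM in sgTaz tumors. The 6 T cell genes, with 5 past the unadjusted threshold as lower and 3 called by each of DESeq2 and limma-voom, summed to 122 to 775 CPM and 92.3 to 233 CPM, and the 6 genes of lymph node stroma, of which 4 passed the filter and 3 were called lower by limma-voom, to 35.2 to 699.9 CPM and 1.55 to 350 CPM. In these last 3 lists the highest value was from sgCon tumor 3, which had the lowest Cldn3, Cldn4, Cldn7, Epcam, Ocln and Dsp of the sgCon tumors. The 7 endothelial genes summed to 381 to 508 CPM and 315 to 639 CPM, and the 7 fibroblast genes to 1502 to 4653 CPM and 1687 to 4642 CPM, with 2 fibroblast genes higher past the unadjusted threshold, of which Pdgfra was called by DESeq2 and limma-voom. Of the few milk, platelet and muscle genes tested (1, 2 and 2), none passed. No marker of these lists that the count table held was at 0 in all tumors. The count table held 4 of 5 milk genes and 3 of 5 platelet genes. Other than through the keratin and lymph node stroma covariates, their part in the differences of the junction genes was not tested.

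Cldn7 varied with Cldn3 within each group, but its ratio to Cldn3 was lower in sgTaz tumors. The ratio of Cldn7 to Cldn3 in CPM was 0.992, 1.13, 0.907, 1.05 and 1.04 in sgCon tumors 1 to 5. It was 0.561, 0.618, 0.595, 0.691 and 0.617 in sgTaz tumors 1 to 5, so that every sgTaz tumor, tumor 2 included, was below every sgCon tumor. The means were 1.02 ± 0.0816 (SD, n = 5) and 0.616 ± 0.0476 (SD, n = 5), a difference of -0.73 in the log2 ratio, with a two-sided exact permutation p of 0.00794. This is the smallest p that 5 tumors against 5 allow. The pair was singled out after the values were seen, and over the 36 pairs of the 9 genes the adjusted p was 0.143, so the difference did not pass the correction. Because the exact p cannot be below 0.00794, a larger difference of this ratio could not have lowered the adjusted p. The ratio of Cldn7 to Epcam was the only other one of the 36 without overlap, at 0.137 to 0.197 in sgCon tumors and 0.0948 to 0.128 in sgTaz tumors (a difference of -0.60 in the log2 ratio). That of Cldn7 to Cldn4 overlapped, at 0.211 to 0.251 in sgCon tumors and 0.147 to 0.236 in sgTaz tumors. The ratios of Cldn7 to Ocln and to Dsp overlapped too, with differences of -0.52 and -0.19 in the log2 ratio. Leaving out 1 tumor at a time, the difference for Cldn7 and Cldn3 was between -0.77 and -0.69. Over all genes, 0.0675% (10 of 14815, Cldn7 among them) had a lower ratio to Cldn3 in sgTaz tumors without overlap and 0.0135% had a higher one. Cldn3 itself varied 4.35-fold over the 10 tumors, and its spread enters every such ratio. Without the ratio, 2.13% of all genes were lower without overlap. Cldn7 was the gene of the 9 closest to Cldn3 (r = 0.989). How rare such a ratio is among genes that vary with Cldn3 was not tested.

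**Figure D4:**
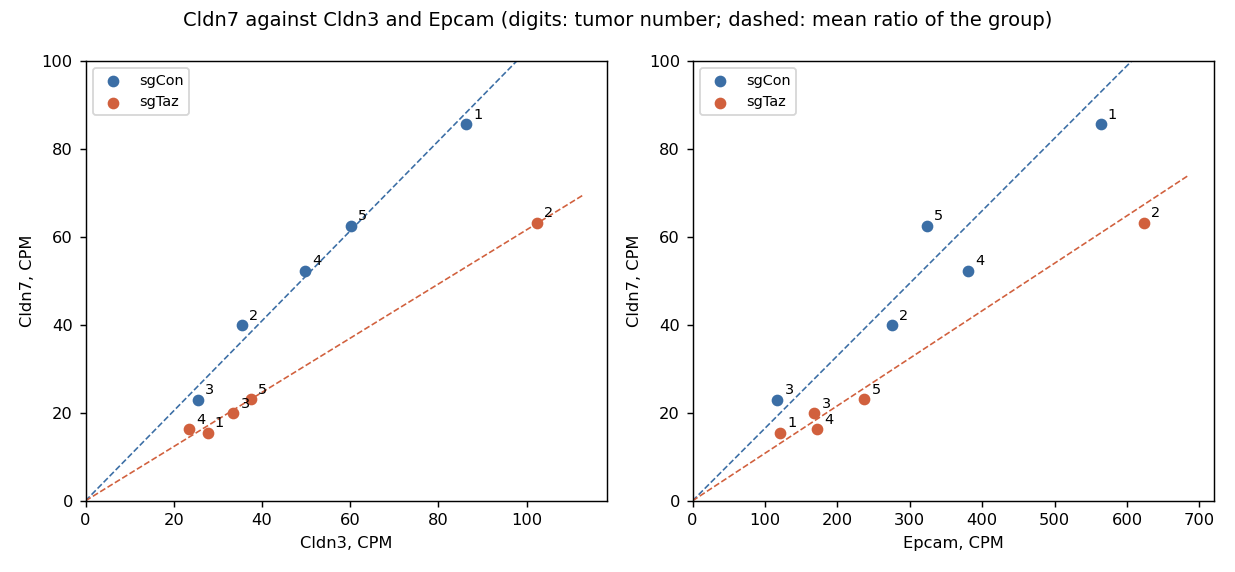
CPM of Cldn7 against CPM of Cldn3 (left) and of Epcam (right) in each tumor (both axes linear from 0), with digits for the tumor number and dashed lines at the mean ratio of each group. The sgTaz tumors lie along a lower line, at a mean of 0.616 Cldn7 to Cldn3 against 1.02 in sgCon tumors.

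Cldn7 was also set against Cldn3, Cldn4 and Epcam together, in a fit across all genes. The mean log2 CPM of these 3 genes was its covariate. The covariate was chosen after the ratios had been seen. It holds Cldn3 and Epcam, whose ratios to Cldn7 did not overlap, and Cldn4, whose ratio did. The fit thus restates the ratios and is not independent of them. At equal level of these 3 genes, the log2 fold change of Cldn7 was -0.63 (SE 0.077, 95% interval -0.80 to -0.46), with an adjusted p of 0.0451 by edgeR. In this fit 3 genes (0.0202%) passed. At an unadjusted p below 0.05, 2 of the 9 genes were lower in this fit, Cldn7 and Dsp, against 13% of all genes. limma-voom and DESeq2 with the same covariate gave -0.66 and -0.62, with adjusted p of 0.0177 and 2.79e-09, in fits that called 0.148% and 8.46% of all genes. Leaving out 1 tumor at a time, the value was between -0.66 and -0.60, but the adjusted p was between 0.0138 and 0.162 and was below 0.05 in 2 of the 10 fits (without sgCon tumor 4 and without sgTaz tumor 5). Dsp was at -0.55 with an adjusted p of 0.0903 by edgeR in this fit, Ocln at -0.28 with 0.296, and Tjp1 at 0.54 with 0.263. Cldn3, Cldn4 and Epcam make up the covariate, so their values near 0 in this fit follow from its construction.

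The sequence just before the start of transcription is shown for Cldn7, Cldn3, Cldn4 and Epcam, the genes of the fit above. Ocln and Dsp varied together with these 4 genes among tumors too, and their windows are not printed. The sequences are the 250 bases before the start in RefSeq, build GRCm38.p6, read 5′ to 3′ on the strand of the gene. The Cldn7 window is chr11:69964529-69964778 (plus strand, the first of 2 start sites), that of Cldn3 chr5:134985964-134986213 (plus), that of Cldn4 chr5:134946935-134947184 (minus) and that of Epcam chr17:87635729-87635978 (plus). None of the 4 overlaps an annotated exon. Capitals mark CACCTG or CAGGTG, the E-box bound by repressors of the Snail and ZEB families, and GGAATG or CATTCC, the motif of the TEAD factors through which TAZ acts on DNA.
Cldn7 promoter: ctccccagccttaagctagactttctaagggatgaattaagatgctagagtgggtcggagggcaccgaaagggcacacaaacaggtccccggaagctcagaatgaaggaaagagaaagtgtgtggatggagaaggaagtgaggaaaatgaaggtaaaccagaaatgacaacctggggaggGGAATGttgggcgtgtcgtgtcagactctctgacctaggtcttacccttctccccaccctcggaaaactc
Cldn3 promoter: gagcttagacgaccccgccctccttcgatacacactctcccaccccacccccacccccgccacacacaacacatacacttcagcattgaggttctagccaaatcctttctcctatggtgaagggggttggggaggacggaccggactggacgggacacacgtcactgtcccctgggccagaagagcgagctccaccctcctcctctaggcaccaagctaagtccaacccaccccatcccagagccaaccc
Cldn4 promoter: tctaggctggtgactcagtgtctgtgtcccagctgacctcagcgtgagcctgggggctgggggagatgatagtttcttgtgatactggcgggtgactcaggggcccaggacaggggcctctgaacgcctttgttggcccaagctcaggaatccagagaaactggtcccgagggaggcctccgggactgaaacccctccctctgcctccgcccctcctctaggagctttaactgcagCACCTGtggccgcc
Epcam promoter: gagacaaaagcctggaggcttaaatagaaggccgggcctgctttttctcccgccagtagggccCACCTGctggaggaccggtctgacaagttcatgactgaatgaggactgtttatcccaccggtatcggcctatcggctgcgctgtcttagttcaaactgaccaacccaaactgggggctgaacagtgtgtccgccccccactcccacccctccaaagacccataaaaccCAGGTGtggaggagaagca
The 9 genes have 11 windows in RefSeq. The E-box was found in 5 of the 11, 1 each of Cldn4, Cldn7, Epcam, F11r and Ocln, and in 17.3% of 32526 promoter windows of the mouse. It begins 14 bases before the start of Cldn4 and 187 and 19 bases before that of Epcam. In Cldn7 the E-box was in the window of the second start site, at 97 and 57 bases, and not in the one shown. The TEAD motif was found in 12.6% of all windows and in 1 of the 11, of Cldn7, where it begins 70 bases before the first start. AACCGGT or ACCGGTT, a motif of the GRHL factors that maintain epithelial genes, was in none of the 11 and in 0.836% of all windows, and TATAAA or TTTATA was in none of the 11 and in 12.3%. Both strands were searched, and the motifs do not overlap each other. These matches describe the letters of the windows and say nothing of binding.

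Genes of the same junctions outside the 9 were described by lists. In the 5 lists of other claudins, tight junction, desmosome, adherens junction and EpCAM-related genes, 50 of 58 genes were tested. None passed the adjusted threshold in edgeR or DESeq2. limma-voom called 4 of the 50 as lower, against 5.8% of all genes: Dsc3 (adjusted p = 0.0393), Perp (0.0388), Cdh1 (0.0415) and Nectin1 (0.0393).

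Of 13 other claudins, 6 were tested and none passed the unadjusted threshold, with a median of 0.06. Cldn5, the claudin of endothelial cells, had the highest level per length of them (29.1 RPKM) and a log2 fold change of -0.04 (SE 0.25). None of the 18 other tight junction genes passed either, with a median of -0.06. Lsr, a protein of the corners where 3 cells meet, was the highest per length (39.4 RPKM) and had a log2 fold change of -0.16. It shares 946 of its 2172 exon bases with Gm4673 on the opposite strand, so reads of this overlap cannot be assigned. The other desmosome genes split, with Dsg2, a desmosomal cadherin, lower at -0.63 and the plakin genes Evpl and Ppl higher at 0.55 and 0.35, all past the unadjusted threshold, among 10 tested (adjusted p = 0.204, 0.192 and 0.206 by edgeR). Perp, the highest of them per length (29.5 RPKM), was at -0.64 with an adjusted p of 0.343 by edgeR.

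Of 12 adherens junction genes, Cdh1, which encodes E-cadherin, averaged 223 ± 77.8 CPM with sgCon and 135 ± 66.6 CPM with sgTaz (SD, n = 5 each). This log2 fold change of -0.72 had an adjusted p of 0.216 by edgeR. Nectin1, an adhesion receptor, was at -0.62 (adjusted p = 0.154), and Ctnnb1, the gene of beta-catenin and the highest of the list per length (216 RPKM), was at 0.22 (adjusted p = 0.201, both by edgeR). All 3 passed the unadjusted threshold and the other 9 did not. The median of the list was 0.07. Of the 4 EpCAM-related genes, which encode its paralog, the protease matriptase and the inhibitors of matriptase, none passed, with a median of -0.23. Spint2 was the highest of them per length (48.2 RPKM) and was at -0.16.

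Among 12 tested regulators that maintain epithelial genes, 0 were lower and 1 was higher at an unadjusted p below 0.05, with a median of -0.25. The 1 was Tfap2c, at 2.14 ± 0.409 CPM with sgCon and 5.52 ± 5.44 CPM with sgTaz (SD, n = 5 each, log2 fold change 1.37, adjusted p = 0.155 by edgeR). Tfap2a, the most abundant of them per length (11.6 RPKM), was at -0.06. The 6 repressors of epithelial genes did not share a direction. Zeb2 averaged 91.0 ± 12.3 CPM with sgCon and 141 ± 25.8 CPM with sgTaz (SD, n = 5 each), a log2 fold change of 0.63 (adjusted p = 0.0874 by edgeR, 0.00192 by DESeq2 and 0.0228 by limma-voom). Twist1 was at 0.32 and Twist2 at -1.15 (adjusted p = 0.153 and 0.108 by edgeR, 0.0965 and 0.0212 by DESeq2), the latter with all sgTaz tumors below all sgCon tumors, as for 2.13% of all genes. Twist2 shares 1477 of its 3174 exon bases with Gm29100 on the opposite strand, and reads of this overlap cannot be assigned. Zeb2 shares 653 of its 19942 exon bases with Zeb2os on the opposite strand. It is also expressed by macrophages, whose markers Csf1r and Adgre1 were at 0.65 and 0.99 (adjusted p = 0.101 and 0.114 by edgeR, 0.0151 and 0.0175 by DESeq2). The part of macrophages in the level of Zeb2 was not tested.

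**Figure D5:**
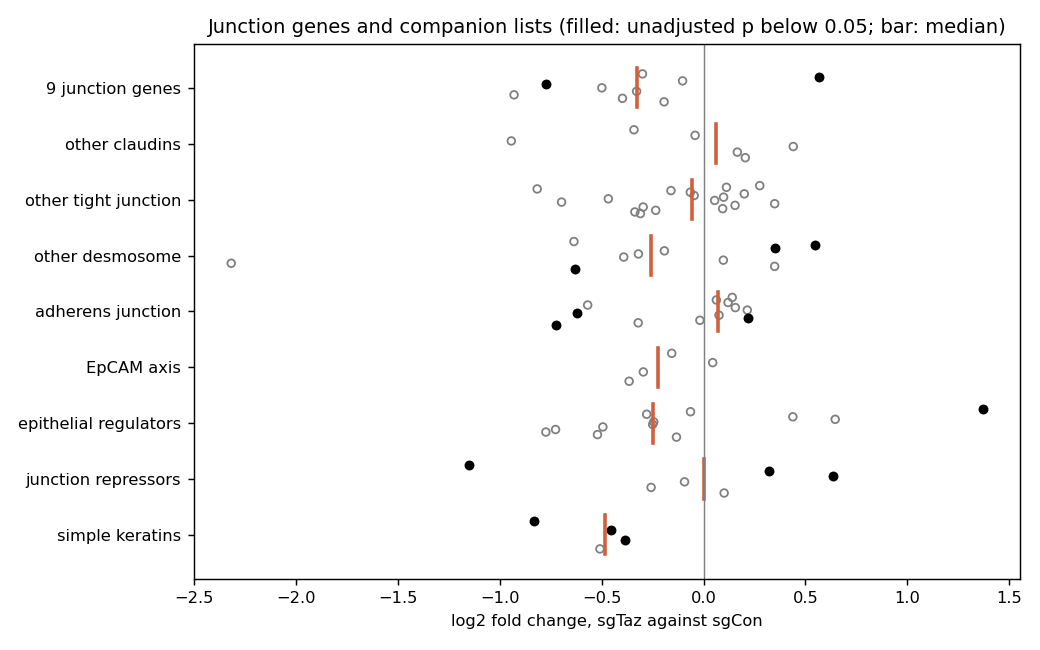
log2 fold change, sgTaz against sgCon, of each tested gene of the 9 junction genes and of 8 companion lists, with filled points at an unadjusted p below 0.05 in edgeR and an orange bar at the median of each list. The bar of the 9 junction genes is at -0.33, that of simple keratins at -0.48 and that of other claudins at 0.06.

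Of the simple keratins, 3 of 4 were lower at an unadjusted p below 0.05, against 11.9% of all genes, with Krt19 at -0.83, Krt18 at -0.45 and Krt8 at -0.38 (adjusted p = 0.129, 0.224 and 0.214 by edgeR). DESeq2 called Krt19 (adjusted p = 0.0358), and limma-voom called none of the 4. Of 4 keratinocyte genes tested, all were below 0 and Krt14 was past the unadjusted threshold. Krt14, a keratin of basal and myoepithelial cells, averaged 136 ± 28.0 CPM with sgCon and 61.5 ± 33.6 CPM with sgTaz (SD, n = 5 each). This log2 fold change of -1.15 passed in 2 of the 3 tools (adjusted p = 0.1 by edgeR, 0.00837 by DESeq2 and 0.021 by limma-voom).

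Outside all lists, the genes whose profile over the 10 tumors was most like the mean profile of the 9 junction genes were Il23a (Pearson r = 0.984), Fhl2 (0.982), Zwint (0.967), Atp2c2 (0.965) and Smox (0.965), among 11423 genes with a mean of at least 5 CPM. These values describe likeness across tumors of both groups. Il23a ran from 15.8 to 44.1 CPM in sgCon tumors and from 14.6 to 42.7 CPM in sgTaz tumors. On the log2 scale its difference was -0.43 (adjusted p = 0.447 by edgeR), and like Cldn3, Cldn4 and Epcam it was high in sgCon tumor 1 and sgTaz tumor 2.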

How the data were processed

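The authors sequenced RNA of whole 4T1 tumors, 5 sgCon and 5 sgTaz, on an Illumina HiSeq instrument. The authors aligned the reads to mm10 (GRCm38) with STAR and GENCODE annotation, and counted them per gene with featureCounts of Subread. The deposited values are raw counts of 17864 genes. Tool versions and the strand setting are not given in the sources used here. The table holds 5 further columns of per-sample values, which were not used.

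Tumors were grouped by the guide RNA in their labels. Of the gene identifiers, 17860 were found in GENCODE M21, which gave symbols, positions and exon lengths. Counts were tested with edgeR 4.0.16 in R 4.3.3 (TMM, filterByExpr, quasi-likelihood test), with Benjamini-Hochberg adjustment over the 14816 genes kept and a threshold of 0.05. DESeq2 1.42.0, which the methods of the study name, and limma 3.58.1 (voom with sample quality weights) were run as alternatives, as were other normalizations, filters and deviances, a replicate block, covariates, and each tumor left out in turn. log2 CPM used a prior count of 2. CPM means and RPKM were computed from TMM-normalized library sizes. Single values were compared by exact two-sided permutation tests, and relations by 100000 permutations within groups, in Python 3.11.15 with scipy 1.17.1. Floors of 3 counts cover counting error only.

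The 9 genes and the companion lists were chosen with earlier results of these data known. In each list, up to 2 genes higher and 2 lower with the smallest unadjusted p below 0.05 and a mean of at least 1 CPM were named, with the gene of highest RPKM. Of the gene lists, 1 list of junction genes is not reported here and is in no total. The covariate of Cldn3, Cldn4 and Epcam, the ratio of Cldn7 to Cldn3 and the order of the genes by level were chosen after seeing the data. Tested on simulated data for this comparison (14650 genes, 200 changed), edgeR recovered 63.7% of genes changed by a log2 of 1 and 89.8% of those changed by 2, with 10 false calls among 163, against 50 among 215 with DESeq2 and 9 among 161 with limma-voom. Each simulated gene varied independently of the others, while genes of the real tumors varied together. These shares therefore hold for the simulated setting and need not hold for the tumors.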

Additional observations from a re-analysis of the deposited data

Results flagged for a closer look

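In sgTaz tumor 2, the log2 CPM of Cldn7 was 5.99, while the other 4 sgTaz tumors lay between 3.97 and 4.54. The log2 CPM of Ocln in the same tumor was 3.74, with the other 4 between 2.57 and 2.77. Both lay farther from the rest of their group than Dixon's 95% limit for 5 samples allows. Of 24 groups of 5 tumors looked at in this way, chance alone would mark 1.2.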

How the results depend on the processing

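The number of genes past the adjusted threshold was 1 in the main test, with 3226 at an unadjusted p below 0.05. It was 1070 with DESeq2, 1546 with limma-voom, 5 when every tumor had to have 10 counts of a gene, and 3 with the Cldn3, Cldn4 and Epcam covariate. It was 0 without a filter, with robust moderation, with the replicate block, and with the keratin or the lymph node stroma covariate, with 3610, 3199, 2462, 3128 and 1636 genes at an unadjusted p below 0.05 in edgeR, against 3371 in DESeq2. With each tumor left out it was between 0 and 172, the highest without sgTaz tumor 5.

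Of the 9 junction genes, 0 passed in the main test and in 20 of 22 alternatives, 2 passed with limma-voom and 1 with the Cldn3, Cldn4 and Epcam covariate. Lower at an unadjusted p below 0.05 were 5 with limma-voom, against 2486 of all 14816 genes. With the filter of 10 counts 2 were lower, against 1602 of 13319 genes. With the replicate block 2 were lower, against 1398 of 14816 genes, and with the keratin covariate 0, against 1768. With the Cldn3, Cldn4 and Epcam covariate 2 were lower, against 1921 genes. With each tumor left out, between 0 and 6 were lower, against 1268 to 2022 of all genes. Higher were 0 with the lymph node stroma covariate, against 784 genes, and 0 with the Cldn3, Cldn4 and Epcam covariate, against 1445. Between 0 and 1 were higher with each tumor left out, against 1032 to 1669 of all genes. The sign of the log2 fold change turned for Cldn1 with the lymph node stroma covariate (0.44), for Cldn3, Cldn4, Epcam, Ocln and F11r with the keratin covariate (0.60, 0.47, 0.52, 0.052 and 0.039), for Cldn3 and Epcam with the covariate that they are part of (0.092 and 0.014), and for Cldn3 without sgCon tumor 1 (0.075, in a range of -0.75 to 0.075 with each tumor left out). The signs of Cldn7, Dsp and Tjp1 held in all 22 alternatives. The cause of these changes was not tested.

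The keratin difference was between -0.68 and -0.36 with each tumor left out, with an exact permutation p below 0.05 without sgCon tumor 3 (0.0476) and without sgTaz tumor 2 (0.0159). Replicate numbers in the labels did not pair the tumors. Deviations of same-numbered tumors correlated between -0.24 and 0.22, and 1 of 5 sgCon tumors matched its own number best. With the replicate block, the difference of the log2 ratio of Cldn7 to Cldn3 was -0.73, with an exact p of 0.0625, the smallest that 5 pairs allow. With each tumor left out it was between -0.77 and -0.69. Cldn1 rested on the fewest counts, 12 to 59 per tumor.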
